A study of Mus musculus with 9 samples.

Results

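The genes of the Reelin signal were followed in the embryonic mouse striatum after conditional loss of the transcription factor Ebf1. The set held 6 genes, chosen by name for their place in the pathway: Reln for the signal itself, Lrp8 and Vldlr for its receptors, Dab1 for the adaptor, Fyn for the kinase and Cdk5r1 for a parallel kinase activator. Their Ensembl identifiers were found in all 9 count files, which list 44886 genes, and all 6 had enough reads to be tested.

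Reelin is a large glycoprotein that cells secrete into the extracellular space. It binds ApoER2 (the product of Lrp8) and the very low density lipoprotein receptor (Vldlr) on a receiving neuron, whereupon Src-family kinases such as Fyn phosphorylate the intracellular adaptor Dab1, which relays the signal to the cytoskeleton and is then degraded. The pathway is best known for placing migrating neurons in the layers of the cortex, where Cajal-Retzius cells of the marginal zone are a classical source of Reelin, and p35 (the product of Cdk5r1) activates Cdk5, a kinase that acts beside the Reelin signal in neuronal migration.

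Striatal tissue was dissected from individual embryos at E17.5, and polyadenylated RNA of each embryo gave 1 library. There were 3 groups of 3 embryos, labelled Control, Islet1Cre;Ebf1fl/- and Dlx5/6::Cre;Ebf1fl/-, and the mutants are called Islet1Cre and Dlx5/6::Cre mutants hereafter. The labels give every embryo the strain C57BL/6, whereas the methods of the study place the Islet1Cre line on B6D2F1/J, so that strain and genotype cannot be told apart in the Islet1Cre mutants. Mutants carried 1 floxed and 1 null allele of Ebf1. They came from males heterozygous for the null allele that carried Cre, mated with females homozygous for the floxed allele. The controls are labelled only as Control, and the methods of the study name heterozygous embryos as controls, so these may also have carried a single working copy of Ebf1, and whether they carried Cre is not stated. Islet1Cre recombines in differentiated direct-pathway spiny projection neurons (dSPN) of the mantle and also in cholinergic interneurons, whereas Dlx5/6::Cre recombines from the subventricular zone onwards in spiny projection neurons of both pathways and in interneurons. The tissue was whole striatum, so that fewer cells of a type and less RNA per cell cannot be told apart.

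The libraries held between 16548083 and 41507049 counts on genes, and Islet1Cre replicate 3 was the smallest. Ebf1 itself was not lower in the mutants. The controls held 7945, 14208 and 9697 normalised counts of it, the Islet1Cre mutants 15343, 13866 and 13210 and the Dlx5/6::Cre mutants 11774, 13079 and 15312, with a log2 fold change of 0.41 (adjusted p = 0.599) and 0.33 (adjusted p = 0.399). Reads were summed over all exons, so the deleted exons are not resolved and this value does not check the genotypes. The markers of the labelled tissue were present, and the 8 markers of spiny projection neurons summed to between 3215 and 3869 CPM (counts scaled to the total of the library) in every embryo. Of these libraries, 2 held counts both of Xist, made from an inactive X chromosome, and of genes of the Y chromosome. Xist was at 396 CPM and the Y-linked Eif2s3y at 3.60 CPM in Control replicate 3, and the values were 245 and 32.3 CPM in Islet1Cre replicate 3. Control replicate 2, in which Xist was at 0.107 CPM, held Eif2s3y at 46.5 CPM. Dlx5/6::Cre replicate 1 also stood apart, with 3 markers of dividing cells at a summed 308 CPM against 47.7 to 88.8 CPM in the other 8 libraries. The letters that open the embryo codes were IE for all Islet1Cre mutants, D for all Dlx5/6::Cre mutants, and IE for 2 controls and D for Control replicate 3, so that this code and the genotype are partly confounded.

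The sequence before the start of Reln is shown because Ebf1 is a DNA-binding factor and Reln was the member with the largest difference between genotypes. The sequences before both listed starts of Dab1, the member that differed in the opposite direction, are set beside it. They are RefSeq sequences on GRCm38.p6, each the 250 bases before a transcription start, read 5′ to 3′ along the gene's own strand, chr5:22344706-22344955 on the minus strand for Reln, and chr4:104367288-104367537 and chr4:103619250-103619499 on the plus strand for Dab1. Capitals mark matches to CCCNNGGG, the core of the palindrome that EBF factors bind, which reads the same on either strand.
Reln: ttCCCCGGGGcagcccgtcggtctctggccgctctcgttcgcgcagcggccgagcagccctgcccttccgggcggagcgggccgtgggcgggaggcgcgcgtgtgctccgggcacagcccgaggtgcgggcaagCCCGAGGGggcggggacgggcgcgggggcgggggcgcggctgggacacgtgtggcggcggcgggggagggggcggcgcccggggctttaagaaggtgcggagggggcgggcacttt
Dab1, start at the end of the 104 Mb window: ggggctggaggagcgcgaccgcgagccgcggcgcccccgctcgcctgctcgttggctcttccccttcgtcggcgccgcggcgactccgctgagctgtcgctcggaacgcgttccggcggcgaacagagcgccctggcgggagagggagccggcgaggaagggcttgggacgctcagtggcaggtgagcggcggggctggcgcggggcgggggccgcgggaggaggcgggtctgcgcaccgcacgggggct
Dab1, start at the end of the 103 Mb window: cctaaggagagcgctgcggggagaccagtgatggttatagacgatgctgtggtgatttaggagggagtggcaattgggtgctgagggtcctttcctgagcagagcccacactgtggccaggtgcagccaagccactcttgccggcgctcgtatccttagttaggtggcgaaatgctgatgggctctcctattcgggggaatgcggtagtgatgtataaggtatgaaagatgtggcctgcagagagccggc
Reln held 2 matches, CCCCGGGG beginning 248 bases and CCCGAGGG beginning 116 bases before the start, in a window of 80% G and C. Neither window of Dab1 held one. In the other members, 1 of 3 windows of Lrp8 and the 1 window of Fyn held a match, and neither of the 2 windows of Vldlr did. The table used here has no entry for Cdk5r1. Among 32851 promoter windows of this length 11.8% held CCCNNGGG, and the longer form with a T before and an A after this core was in 0.779% of them and in none of the windows of the members. A match of letters is not a binding site, and binding was not measured in these samples.

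Compared per length, the members lay at very different levels in control striatum (CPM per kb of the union of annotated exons, mean ± SD, n = 3). Cdk5r1 was the highest at 177 ± 12.6 CPM per kb, followed by Fyn at 71.6 ± 3.76, Lrp8 at 19.8 ± 0.94, Vldlr at 12.02 ± 0.95, Reln at 6.69 ± 1.26 and Dab1 at 1.84 ± 0.20. With this length no neighbours in the order overlapped between embryos. Reln and Vldlr could not be ordered when the longest transcript served as length, because the annotated exons of Reln cover 23738 bases and its longest transcript 11699. Reln then ran from 11.3 to 16.4 CPM per kb and Vldlr from 14.2 to 16.5. In the Dlx5/6::Cre mutants the lower end of this order was turned around, where Reln, at 1.57 ± 0.26 CPM per kb, lay below Dab1 at 3.32 ± 0.48.

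**Figure D1:**
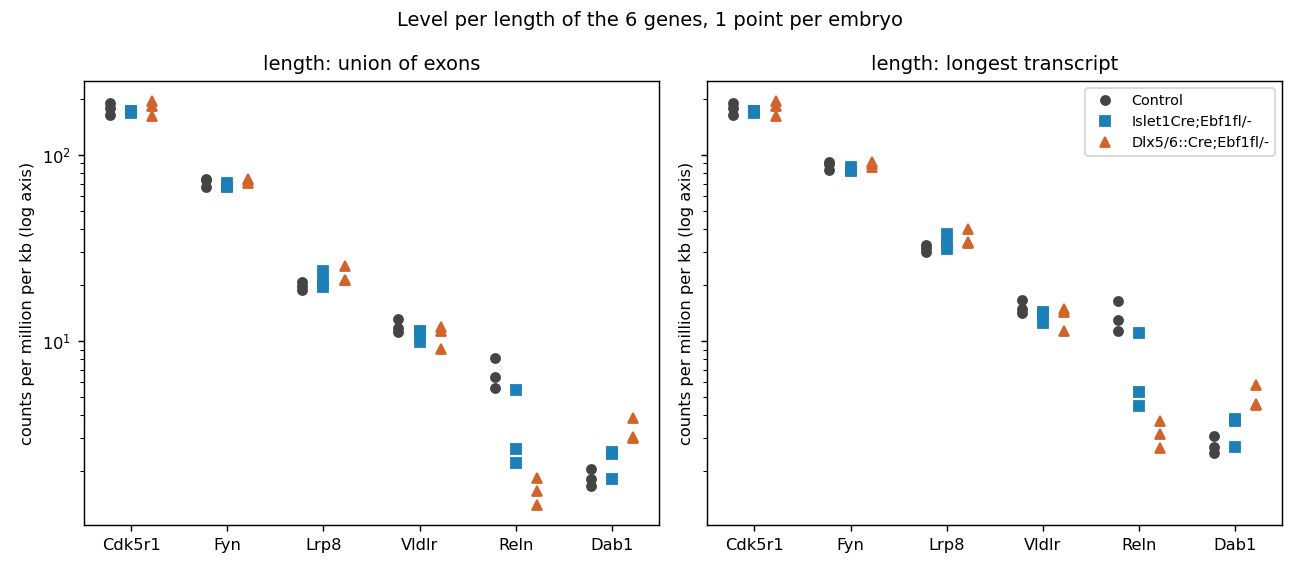
Level of each gene in CPM per kb on a log axis, 1 point per embryo and 1 symbol per genotype, with the union of exons (left) and the longest transcript (right) as length. Cdk5r1, Fyn, Lrp8 and Vldlr lie at like levels in the 3 genotypes, while Reln falls from 5.58 to 8.06 CPM per kb in the controls to 1.32 to 1.84 in the Dlx5/6::Cre mutants with the union of exons as length.

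Reln, which encodes the secreted signal, was lower in every mutant embryo than in every control. Its normalised count (counts divided by DESeq2 size factors) stood at 3911, 4656 and 5830 in the controls, 1623, 1837 and 3819 in the Islet1Cre mutants and 944, 1118 and 1353 in the Dlx5/6::Cre mutants. The 3 genotypes did not overlap, and Islet1Cre replicate 3 lay just under the lowest control and well above the other 2 Islet1Cre mutants. The gene spans chr5:21884454-22344702 on the minus strand of GRCm38 (ENSMUSG00000042453) and collected between 875 and 6061 reads per library.

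In the Dlx5/6::Cre mutants Reln fell to 0.237 of its control level, from 4799 ± 968 to 1138 ± 205 normalised counts (SD, 3 embryos each). On the log2 scale this was a change of -2.07 (SE 0.29, 95% interval -2.72 to -1.42) that passed the test over 16368 genes (edgeR, adjusted p = 0.00529). Of all genes tested 2.39% passed in this comparison, 1.34% downwards, and Reln ranked 75 by p. Mutants wholly below the controls were found for 11.3% of all genes. The call held with each of the 9 embryos left out in turn, with log2 fold changes of -2.22 to -1.91. It also held without the 2 libraries that carry both Xist and Y-linked counts (-1.91, adjusted p = 0.00159) and with the embryo code as a covariate (-2.36, adjusted p = 0.0487), but not among embryos of code D alone, where a single control was left (-2.36, adjusted p = 0.112).

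In the Islet1Cre mutants the mean of Reln was 2426 ± 1211 normalised counts (SD, n = 3), at 0.503 of the control mean in the fit. This difference did not pass the test over all genes (log2 fold change -0.99, SE 0.29, 95% interval -1.62 to -0.36, edgeR adjusted p = 0.209), in a comparison in which 0.971% of genes passed. The groups did not overlap, as was true for 15.1% of all genes tested and, with the mutants wholly below, for 7.28%. The call depended on the filter and on the libraries used. With no filter on low counts the log2 fold change was the same, -0.99, and passed (adjusted p = 0.00828). Without Islet1Cre replicate 3, the smallest library and 1 of the 2 with both Xist and Y-linked counts, the log2 fold change was -1.48 and passed (adjusted p = 0.0123), and without both libraries of that kind it was -1.30 (adjusted p = 0.0303). Among embryos of code IE alone, with 2 controls, it was -0.82 (adjusted p = 0.384). DESeq2 on all 9 embryos gave -0.98 (adjusted p = 0.242). The study, which used DESeq 1.8.3 on the same libraries, reports Reln as drastically lowered in both mutants. For the Islet1Cre mutants the main fit here thus differs from the study in its call, though not in direction.

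**Figure D2:**
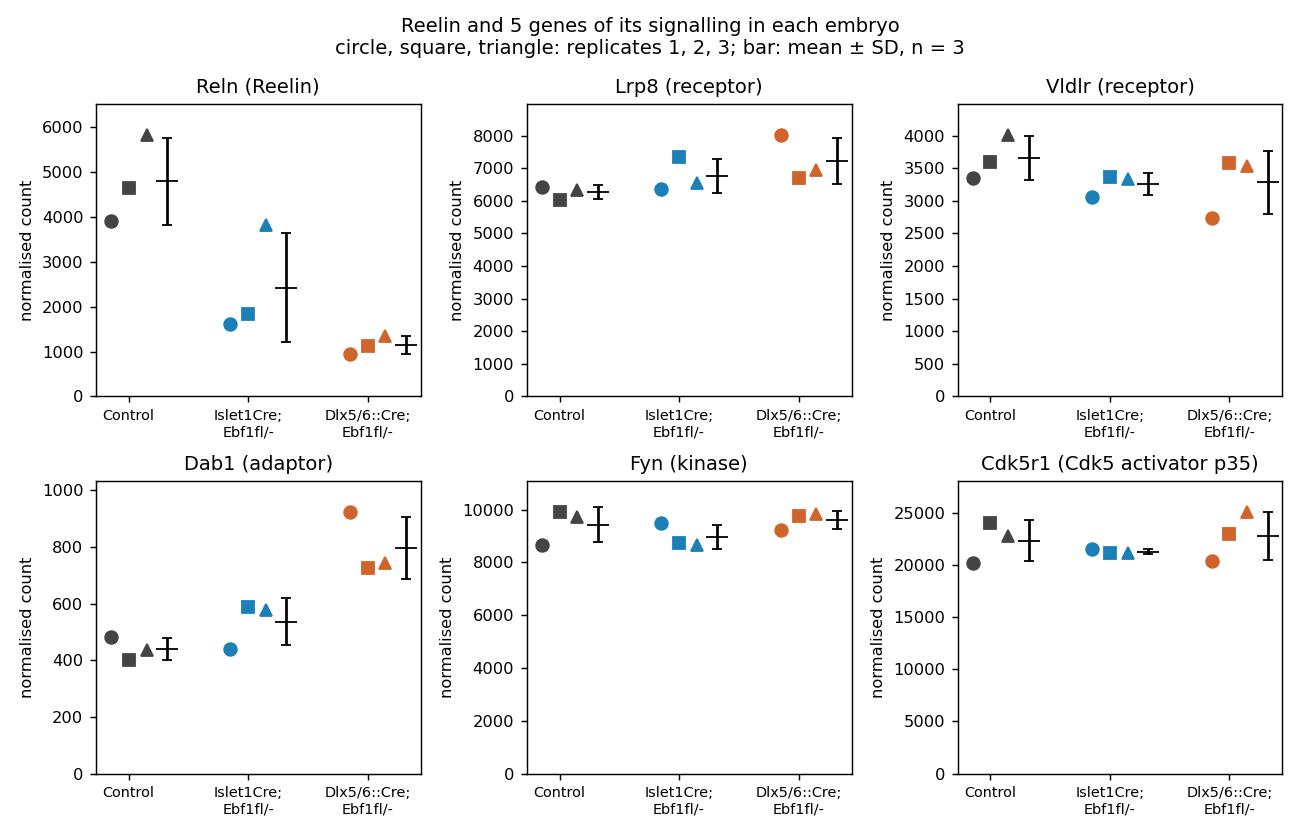
Normalised count of each of the 6 genes (vertical axes from 0) in each embryo, by genotype, with the mean and SD of 3 embryos as a bar. Reln is below every control in all 6 mutants, with Islet1Cre replicate 3 at 3819, and Dab1 is above every control in the 3 Dlx5/6::Cre mutants, while Fyn and Cdk5r1 overlap between genotypes.

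The summed level of dSPN markers was lower in all 6 mutants than in the controls. The 10 markers summed to 1330 to 1381 CPM in the controls, to 798, 828 and 1010 CPM in the Islet1Cre mutants and to 583, 714 and 702 CPM in the Dlx5/6::Cre mutants. Islet1Cre replicate 3, the mutant with the most Reln, was also the mutant with the highest sum. Of these 10 markers, 4 fell in the Islet1Cre mutants, where 0.971% of all genes passed, and 5 in the Dlx5/6::Cre mutants, where 2.39% did, and none rose. The 4 were Plxnd1, Zfp521, Mef2c and Slc35d3, joined by Chrm4 in the Dlx5/6::Cre mutants. The study names Plxnd1, Zfp521, Mef2c and Slc35d3 as deregulated in these same libraries. The count of markers that passed is therefore not independent of that result, and the summed level includes these genes. Plxnd1, a semaphorin receptor gene, had the largest difference in counts, with means of 14138 normalised counts in the controls, 5343 in the Islet1Cre and 3899 in the Dlx5/6::Cre mutants. At an unadjusted p under 0.05 (edgeR) stood 6 of the 10 in the Islet1Cre and all 10 in the Dlx5/6::Cre mutants, all but Drd1 downwards. Tac1 and Pdyn had log2 fold changes of -0.53 and -0.55 in the Islet1Cre mutants. In the Dlx5/6::Cre mutants these were -1.12 (adjusted p = 0.0776) and -0.77 (adjusted p = 0.232), and none of the values of Tac1 and Pdyn passed. The markers did not move as 1 block. Drd1, the dopamine receptor gene that defines dSPN, had log2 fold changes of 0.67 in the Islet1Cre (adjusted p = 0.346) and 0.53 in the Dlx5/6::Cre mutants (adjusted p = 0.293). All 3 Islet1Cre mutants lay above the controls for Drd1, as was true for 7.83% of all genes tested. Isl1 and Foxp2 were at -0.0036 and 0.03 in the Islet1Cre mutants, and at -0.40 (adjusted p = 0.0817) and -0.36 (adjusted p = 0.202) in the Dlx5/6::Cre mutants. Markers of the other spiny projection neurons, those of the indirect pathway (iSPN), summed to 496 to 566 CPM in the controls and to 538 to 596 and 556 to 661 CPM in the Islet1Cre and Dlx5/6::Cre mutants, and 0 of 6 passed the test (edgeR, 0 at an unadjusted p under 0.05 in either comparison). The part of the number of dSPN in the level of Reln was not tested.

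Cajal-Retzius cells are another source of Reln that a dissection might include. Their defining markers Trp73, Lhx5 and Lhx1 stood at 0 to 7.70 normalised counts in all 9 embryos and were too low to be tested. Trp73 had 2.71, 5.72 and 7.70 normalised counts in the controls, 2.72, 0.709 and 1.79 in the Islet1Cre mutants and 2.16, 0 and 2.45 in the Dlx5/6::Cre mutants. The 3 Dlx5/6::Cre mutants thus lay below every control for Trp73, as they did for Reln. Mutants wholly below the controls were found for 11.3% of all genes tested, and Trp73 was not among those tested. The Islet1Cre mutants overlapped the controls for Trp73 through replicate 1 alone. For Lhx5 and Lhx1 both mutant groups overlapped the controls. The mean of Lhx5 was higher in both mutant groups than in the controls, and that of Lhx1 was lower. At counts this low the separation for Trp73 alone does not show fewer Cajal-Retzius cells. The 6 markers of this list summed to 9.40 to 14.5 CPM in the controls, 13.8 to 15.7 in the Islet1Cre mutants and 13.8 to 16.2 in the Dlx5/6::Cre mutants, largely through Ndnf and Calb2, which other neurons also express. Of the 3 markers tested, none passed in either comparison (Calb2 had the smallest adjusted p, 0.166 in the Dlx5/6::Cre mutants). Nhlh2, Ndnf and Calb2 had log2 fold changes of 0.58, -0.21 and 0.66 in the Dlx5/6::Cre mutants and of -0.52, -0.31 and 0.68 in the Islet1Cre mutants. Markers of interneurons from the medial ganglionic eminence, some of which make Reelin, summed to 343 to 366 CPM in the controls, 323 to 376 in the Islet1Cre mutants and 203, 327 and 272 in the Dlx5/6::Cre mutants. All 3 Dlx5/6::Cre mutants thus lay below every control for this sum, as for Reln. The same held singly for Lhx6, Sst and Npy, a pattern shared by 11.3% of all genes tested. Of the 5 markers, 0 passed there (edgeR, 3 at an unadjusted p under 0.05, Lhx6 and Npy downwards and Maf upwards). Lhx6, Npy and Sst had log2 fold changes of -0.43 (adjusted p = 0.0893), -0.76 (adjusted p = 0.127) and -0.33 (adjusted p = 0.331). Maf and Nkx2-1 were higher, at 0.33 (adjusted p = 0.321) and 0.31 (adjusted p = 0.705). All 3 Dlx5/6::Cre mutants lay above every control for Maf, as was true for 9.63% of all genes tested. The part of either cell type in the level of Reln was not tested.

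The receptor genes differed little. Lrp8, whose product is the ApoER2 receptor (chr4:107802261-107876840), had normalised counts of 6431, 6042 and 6349 in the controls, 6354, 7342 and 6556 in the Islet1Cre mutants and 8022, 6705 and 6948 in the Dlx5/6::Cre mutants. All 3 Dlx5/6::Cre mutants lay above the controls, a pattern shared by 9.63% of all genes tested, and the difference did not pass the test (log2 fold change 0.20, 95% interval 0.01 to 0.40, adjusted p = 0.305). In the Islet1Cre mutants the groups overlapped, with a log2 fold change of 0.10 (95% interval -0.09 to 0.30, adjusted p = 0.971).

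Vldlr, the other receptor (chr19:27216484-27254231), had normalised counts of 3344, 3603 and 4011 in the controls, 3058, 3368 and 3343 in the Islet1Cre mutants and 2733, 3584 and 3530 in the Dlx5/6::Cre mutants. Both mutant groups overlapped the controls. The log2 fold change was -0.17 in the Islet1Cre mutants (95% interval -0.41 to 0.07) and -0.15 in the Dlx5/6::Cre mutants (95% interval -0.40 to 0.09), with adjusted p of 0.883 and 0.523. The intervals of both receptors thus leave out changes as large as that of Reln in the Dlx5/6::Cre mutants.

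Dab1, the adaptor that binds both receptors inside the cell, was the member that rose. Its normalised count stood at 481, 403 and 435 in the controls, 442, 590 and 578 in the Islet1Cre mutants and 922, 727 and 742 in the Dlx5/6::Cre mutants. Every Dlx5/6::Cre mutant lay above every other embryo, while Islet1Cre replicate 1 lay within the controls. Dlx5/6::Cre mutants wholly above the controls were found for 9.63% of all genes tested. The gene covers chr4:103619359-104744844 (ENSMUSG00000028519), and with 323 to 910 reads it had the fewest reads of the members in each library.

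In the Dlx5/6::Cre mutants Dab1 rose 1.81-fold, from 440 ± 39.5 to 797 ± 109 normalised counts (SD, n = 3 each, log2 fold change 0.86, SE 0.14, 95% interval 0.54 to 1.18, adjusted p = 0.0130). An upward call was made for 1.05% of all genes tested. The size of the difference hardly moved between fits, but the call was less secure than that of Reln. It was lost without Control replicate 2 (0.80, adjusted p = 0.0548), without Control replicate 3 (0.85, adjusted p = 0.0571), without both libraries with Xist and Y-linked counts (0.85, adjusted p = 0.104), with the embryo code as a covariate (0.87, adjusted p = 0.246) and among embryos of code D alone (0.87, adjusted p = 0.684). In the Islet1Cre mutants the log2 fold change was 0.29 (SE 0.15, 95% interval -0.04 to 0.61), which did not pass (adjusted p = 0.728).

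Cortical excitatory neurons also use Dab1. The 7 markers of these cells summed to 87.0, 60.8 and 34.2 CPM in the controls, 61.8, 38.9 and 63.3 CPM in the Islet1Cre mutants and 203, 80.1 and 94.8 CPM in the Dlx5/6::Cre mutants. Dlx5/6::Cre replicate 1 was highest both for this sum and for Dab1, replicate 3 also lay above every control, and replicate 2 lay within their range. All 7 markers had positive log2 fold changes in the Dlx5/6::Cre mutants, from 0.86 to 1.26 with a median of 0.99, beside 0.01 over all genes, and 0 of 7 passed the test (edgeR, 3 at an unadjusted p under 0.05). Tbr1, a transcription factor gene of deep cortical layers, was higher in all 3 of these mutants than in every control (log2 fold change 1.03, adjusted p = 0.129). Mutants wholly above the controls were found for 9.63% of all genes tested in this comparison. Without Dlx5/6::Cre replicate 1, Dab1 stood at a log2 fold change of 0.74 and passed (adjusted p = 0.0116), with replicate 3 still above the controls for the cortical sum. The part of cortical cells in the level of Dab1 was not tested.

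**Figure D3:**
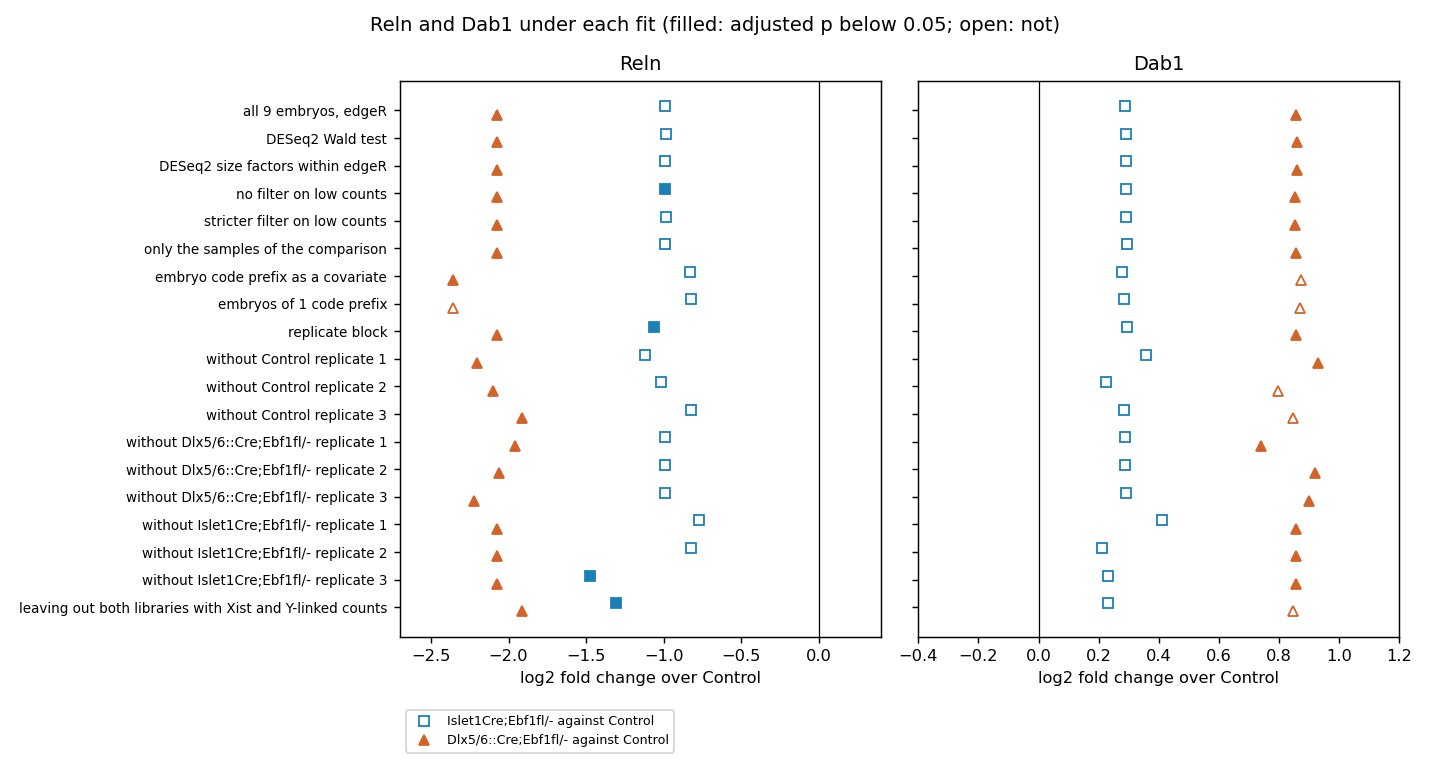
Log2 fold change of Reln (left) and Dab1 (right) over Control in the Islet1Cre (squares) and Dlx5/6::Cre (triangles) mutants, 1 row per fit, filled where the adjusted p is below 0.05. The direction is the same in all 19 fits of each comparison, and the Islet1Cre value of Reln runs from -1.48 without Islet1Cre replicate 3 to -0.77 without Islet1Cre replicate 1.

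The genes on the kinase side did not pass the test in either mutant. Fyn, the Src-family kinase that phosphorylates Dab1 (chr10:39368855-39565381), had normalised counts of 8673, 9894 and 9731 in the controls, 9496, 8727 and 8664 in the Islet1Cre mutants and 9222, 9768 and 9845 in the Dlx5/6::Cre mutants. Its log2 fold change was -0.08 in the Islet1Cre mutants (95% interval -0.25 to 0.09) and 0.03 in the Dlx5/6::Cre mutants (95% interval -0.14 to 0.20), with adjusted p of 0.991 and 0.903. Fyn was the member with the narrowest intervals.

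Cdk5r1, which encodes the Cdk5 activator p35, lies on the chromosome of Ebf1 (chr11:80477023-80481184), 35.5 Mb from it. Its normalised count stood at 20163, 24013 and 22742 in the controls, 21531, 21130 and 21123 in the Islet1Cre mutants and 20360, 22901 and 25014 in the Dlx5/6::Cre mutants. The groups overlapped, with log2 fold changes of -0.07 (95% interval -0.28 to 0.14) and 0.03 (95% interval -0.18 to 0.24) and adjusted p of 0.999 and 0.919.

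Of the 6 members, 0 passed the test in the Islet1Cre mutants (edgeR, 1 at an unadjusted p under 0.05, 0 by DESeq2), beside 0.971% of all genes tested, and 2 passed in the Dlx5/6::Cre mutants, beside 2.39%, Reln downwards and Dab1 upwards. Both comparisons share the same 3 controls. In the Dlx5/6::Cre mutants the secreted signal and its intracellular adaptor thus differed in opposite directions, while the receptor and kinase genes did not pass. The ratio of Reln to Dab1 within an embryo, which does not depend on the scaling of libraries and was chosen after the values were seen, came to 2.71, 3.85 and 4.47 per length in the controls, 1.22, 1.04 and 2.20 in the Islet1Cre mutants and 0.341, 0.513 and 0.607 in the Dlx5/6::Cre mutants. Reln therefore exceeded Dab1 per length in all 6 Control and Islet1Cre embryos and was below it in the 3 Dlx5/6::Cre mutants, with either length measure.

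**Figure D4:**
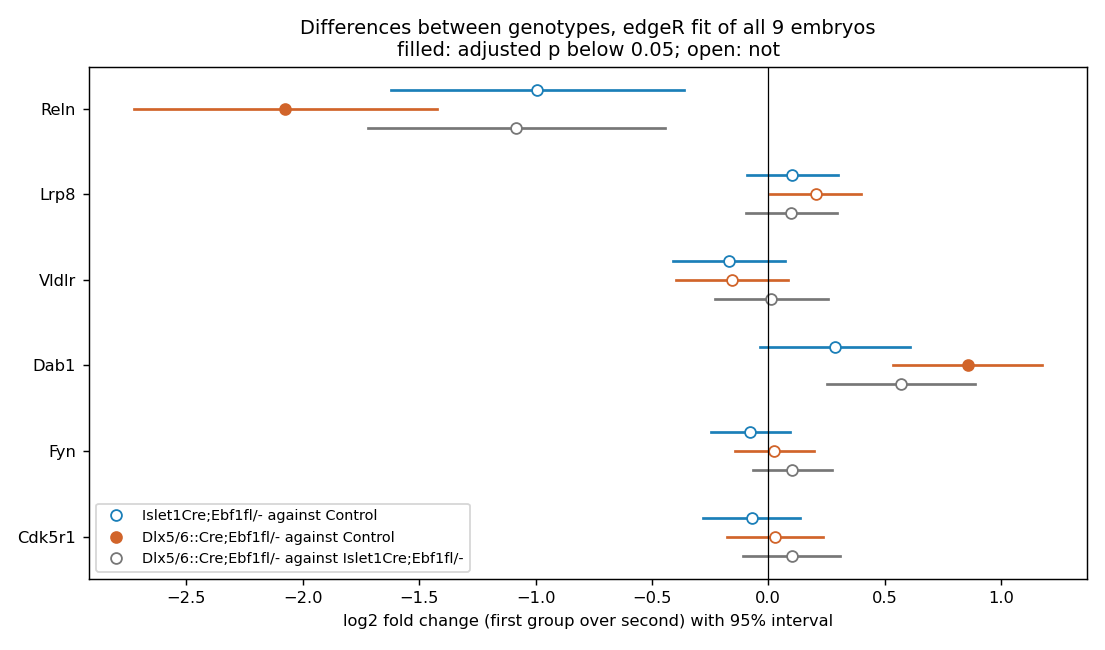
Log2 fold change of each member with its 95% interval, for both mutants against Control and for the Dlx5/6::Cre mutants against the Islet1Cre mutants, filled where the adjusted p is below 0.05. Only Reln (-2.07) and Dab1 (0.86) in the Dlx5/6::Cre mutants are filled, and the estimates of Lrp8, Vldlr, Fyn and Cdk5r1 lie between -0.17 and 0.20.

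Set directly against each other, the mutant genotypes did not differ in any member after adjustment, nor in any of the 16368 genes tested (edgeR, 844 at an unadjusted p under 0.05, 17 by DESeq2). Reln was lower in all 3 Dlx5/6::Cre mutants than in all 3 Islet1Cre mutants, with a log2 fold change of -1.08 (95% interval -1.72 to -0.44, edgeR adjusted p = 0.868). Without Islet1Cre replicate 3 this difference was -0.60. With no filter on low counts it was again -1.08 and passed the threshold. Dab1 was higher in all 3 Dlx5/6::Cre mutants, with a log2 fold change of 0.57 (95% interval 0.25 to 0.89, edgeR adjusted p = 0.868). Groups that did not overlap were found for 10.4% of all genes in this comparison. The log2 fold changes of Lrp8, Vldlr, Fyn and Cdk5r1 were 0.10, 0.01, 0.10 and 0.10, and their groups overlapped. A larger effect of 1 Cre line than of the other on Reln or Dab1 was therefore not shown in the main fit, and for Reln the call depended on the filter.

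A list of 40 other genes of the pathway covered further ligands and binders of the receptors, proteases that cleave Reelin, regulators of receptor turnover, kinases, and effectors downstream of Dab1. All 40 were tested. None passed in the Islet1Cre mutants (edgeR, 3 at an unadjusted p under 0.05, 1 by DESeq2), beside 0.971% of all genes tested. Of the list 2 passed in the Dlx5/6::Cre mutants, 1 in each direction, which is 5% beside 2.39% of all genes (7 at an unadjusted p under 0.05, 6 by DESeq2), and the count varied with the fit. It was 0 with only the samples of the comparison, with the embryo code as a covariate, among embryos of code D, without both libraries with Xist and Y-linked counts, and without any 1 of Control replicates 2 and 3 and Dlx5/6::Cre replicates 2 and 3. It was 1 without Control replicate 1 or any 1 of the Islet1Cre mutants. The median log2 fold change of the list was 0.03 and 0.07, beside -0.0016 and 0.01 over all genes. Mutant and control embryos did not overlap for 15% and 22.5% of the list, beside 15.1% and 20.9% of all genes tested, so that the list as a whole stood near the background.

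Thbs1, which encodes the secreted protein thrombospondin-1, a ligand of ApoER2 and Vldlr, rose in the Dlx5/6::Cre mutants. Its normalised count stood at 239, 250 and 215 in the controls, 342, 284 and 285 in the Islet1Cre mutants and 379, 373 and 367 in the Dlx5/6::Cre mutants, so that all mutants lay above all controls. Mutants wholly above the controls were found for 7.83% of all genes tested in the Islet1Cre and 9.63% in the Dlx5/6::Cre comparison. The log2 fold change was 0.67 in the Dlx5/6::Cre mutants (SE 0.13, adjusted p = 0.0272) and 0.37 in the Islet1Cre mutants (SE 0.13, adjusted p = 0.395).

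Mylip, which encodes the ubiquitin ligase Idol that sends both Reelin receptors to degradation, fell in the Dlx5/6::Cre mutants. Its normalised count stood at 293, 360 and 453 in the controls, 204, 220 and 200 in the Islet1Cre mutants and 195, 219 and 211 in the Dlx5/6::Cre mutants. All 6 mutants lay below the controls and close to each other. Mutants wholly below the controls were found for 7.28% of all genes tested in the Islet1Cre and 11.3% in the Dlx5/6::Cre comparison. The log2 fold change was -0.82 in the Dlx5/6::Cre mutants (SE 0.17, edgeR adjusted p = 0.0309). It was -0.82 in the Islet1Cre mutants (SE 0.17, adjusted p = 0.0545), just outside the threshold. In the Islet1Cre mutants the call of Mylip depended on the fit. It passed by DESeq2 (adjusted p = 0.000934), and in edgeR with no filter (adjusted p = 0.0249) and with only the samples of the comparison (adjusted p = 0.0466). With an embryo left out it passed in 1 of 9 fits. Both calls in the Dlx5/6::Cre mutants were fragile. That of Thbs1 held in 4 of 9 fits with an embryo left out and that of Mylip in 2 of 9, and neither held without Control replicate 2, Control replicate 3 or Dlx5/6::Cre replicate 2 or 3. Over the 9 fits the log2 fold changes stayed between 0.61 and 0.72 for Thbs1 and between -0.96 and -0.65 for Mylip.

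**Figure D5:**
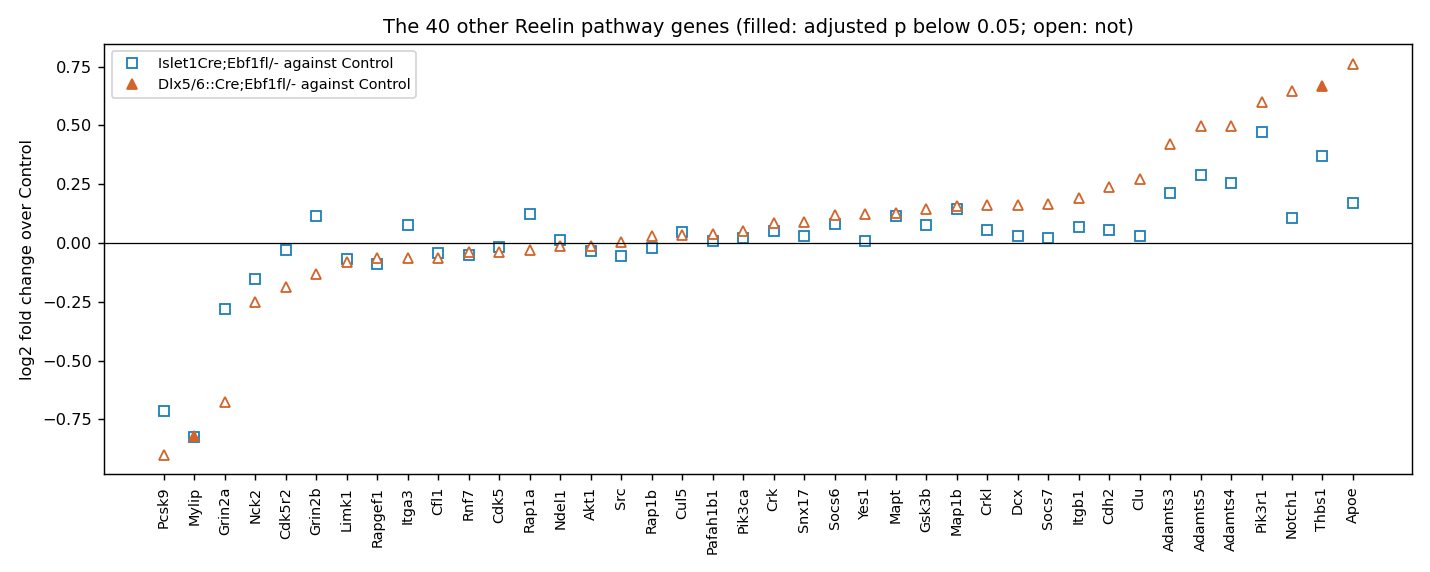
Log2 fold change over Control of the 40 other pathway genes in the Islet1Cre (squares) and Dlx5/6::Cre (triangles) mutants, ordered by the Dlx5/6::Cre value and filled where the adjusted p is below 0.05. Most genes lie near 0, and the filled points are Mylip at -0.82 and Thbs1 at 0.67, both in the Dlx5/6::Cre mutants.

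The genes whose pattern over the 9 embryos was most like that of Reln were Syt4, Zfp521, Gm14133, Stra6l and Chst15. Likeness was the root mean square difference of log2(CPM + 1), each gene centred on its own mean, among 12050 genes with a mean normalised count of at least 100. It was 0.212 for Syt4, 0.226 for Zfp521, 0.268 for Gm14133, 0.268 for Stra6l and 0.299 for Chst15, beside a median of 0.92 over all genes compared. Syt4, which encodes a synaptotagmin of intracellular vesicles, had normalised counts of 5302, 7351 and 10843 in the controls, 2218, 2167 and 4532 in the Islet1Cre mutants and 1571, 1861 and 1887 in the Dlx5/6::Cre mutants, so that Islet1Cre replicate 3 was the highest mutant here too. Zfp521, a zinc-finger transcription factor that is also on the list of dSPN markers, had 4358, 4075 and 5144 in the controls, 1408, 1706 and 2488 in the Islet1Cre mutants and 1043, 1003 and 1009 in the Dlx5/6::Cre mutants. Likeness over 9 embryos of 3 genotypes mostly reflects the differences between genotypes and the position of Islet1Cre replicate 3, and is given as a description.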

How the data were processed

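RNA from the striatum of 9 mouse embryos at E17.5, 3 per genotype label, was sequenced as 1 library per embryo (TruSeq Stranded mRNA, 400 ng of total RNA). The files the authors deposited hold raw read counts for each Ensembl gene, not normalised. Per the study's methods, reads were trimmed and filtered, mapped with STAR 2.4.0k, stripped of reads with several positions, and counted with HTSeq 0.5.3. The submitters' notes name the build mm10, and the strand setting of the counting is not given in the sources used here. No 75-base stretch of Reln, Vldlr, Dab1, Fyn or Cdk5r1 transcripts recurs in another gene, and 0.00914% of those of Lrp8 do. An antisense gene, Gm10475, overlaps 125 exonic bases of Reln and held 0 to 3 counts.

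These counts were fitted with edgeR 4.0.16 (R 4.3.3) over all 9 samples in 3 groups (TMM scaling, filterByExpr with a minimum count of 10, quasi-likelihood test, Benjamini-Hochberg over 16368 genes, called below an adjusted p of 0.05). SE is the log2 fold change over the square root of F. Normalised counts use the size factors of DESeq2 1.42.0. CPM per kb uses lengths of GENCODE M21, which named 44048 of 44886 identifiers. With 3 embryos against 3 an exact permutation test of 1 gene cannot go below 0.1. The labels name individual embryos, and litters are not given. Same-numbered embryos of different genotypes did not deviate together (mean correlation -0.03 over 9 pairs), and same-group libraries differed beyond sampling noise.

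The members and all gene lists were chosen with earlier results of these data known. All members are named. Of the 40 other pathway genes those that pass against Control are named, and the 5 genes most like Reln are named by their root mean square difference. On simulated data for 16156 genes with 100 genes changed by a log2 of 2 and 100 by a log2 of 1, the edgeR step recovered 98% and 74% of them in the Dlx5/6::Cre comparison, with 6.52% of its calls false. The changed genes were not among those of lowest count and changed alike in both mutants. Embryos were drawn independently with no aberrant library. The check therefore does not describe a gene whose call depends on 1 library. Alternatives were DESeq2, its size factors, other filters, the 6 samples of a comparison alone, the embryo code, a replicate block, each embryo left out, and, added after seeing the data, leaving out the 2 libraries with Xist and Y-linked counts.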

Additional observations from a re-analysis of the deposited data

How the results depend on the processing

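Reln kept its direction in every fit run. Its log2 fold change in the Islet1Cre mutants passed the threshold when low counts were not filtered (-0.99, adjusted p = 0.00828), with a replicate block (-1.06, adjusted p = 0.0203), without Islet1Cre replicate 3 (-1.48) and without both libraries with Xist and Y-linked counts (-1.30), and ran from -1.48 to -0.77 with 1 embryo left out. In those 4 fits 1 member passed instead of 0. In the Dlx5/6::Cre mutants it was -2.36 among embryos of code D, where it no longer passed and 0 members did, and ran from -2.22 to -1.91 with 1 embryo left out. The count of members there was 1 with the embryo code as a covariate, 1 without both libraries with Xist and Y-linked counts, and 1 to 2 with 1 embryo left out. Between the mutants Reln passed with no filter (-1.08, adjusted p = 0.0481), making 1 member, and ran from -1.30 to -0.60 with 1 embryo left out.

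Of the 40 other pathway genes, the number that passed in the Islet1Cre mutants was 1 by DESeq2, with no filter and with only the samples of the comparison, and 0 to 1 with 1 embryo left out. In the Dlx5/6::Cre mutants it was 6 by DESeq2, 4 with no filter, 0 with only the samples of the comparison, 0 with the embryo code as a covariate, 0 among embryos of code D, 0 without both libraries with Xist and Y-linked counts, and 0 to 3 with 1 embryo left out. Over all genes the calls ran from 15 to 401 in the Islet1Cre mutants (401 by DESeq2, 15 without Islet1Cre replicate 2) and from 2 to 844 in the Dlx5/6::Cre mutants (844 by DESeq2, 2 among embryos of code D).

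Reversed signs occurred only among differences that no fit called. Against Control in the Dlx5/6::Cre mutants, Fyn was at -0.018 with the embryo code as a covariate, at -0.021 among embryos of code D and between -0.029 (without Control replicate 1) and 0.060 with 1 embryo left out, and Cdk5r1 at -0.0019 among embryos of code D and between -0.051 (without Dlx5/6::Cre replicate 3) and 0.101 with 1 embryo left out. Between the mutants, Vldlr was at -0.19 with the embryo code as a covariate and between -0.055 (without Dlx5/6::Cre replicate 2) and 0.127 with 1 embryo left out. Embryo numbers do not pair the samples, and the replicate block changed no other call of a member. It gave 143 calls over all genes in the Islet1Cre and 363 in the Dlx5/6::Cre mutants, against 159 and 392 without it. The cause of these differences between fits was not tested. A comparison between the mutants among embryos of 1 code could not be fitted, since each mutant has its own code. With the longest transcript as length the level of Reln in the controls was 13.6 CPM per kb.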
